A study of Homo sapiens with 4 samples.

Results

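The 7 genes UPF1, UPF2, UPF3A, UPF3B, SMG1, SMG5 and SMG6 encode factors of nonsense-mediated mRNA decay. To see where 2 RNA-binding proteins sat on them, the peaks listed under their NCBI Gene IDs were taken from the HNRNPC and the PABPC4 peak lists, each position once. This gave 16 of 9107 HNRNPC peaks and 70 of 63507 PABPC4 peaks.

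Nonsense-mediated decay removes mRNAs whose stop codon lies too far upstream of an exon junction. The pathway turns on UPF1, an RNA helicase that gathers on the stalled message, on UPF2 and its partners UPF3A and UPF3B, which link UPF1 to the protein complex left at exon junctions, on SMG1, the kinase that phosphorylates UPF1, and on SMG5 and SMG6, which bind phosphorylated UPF1 and bring about decay. SMG6 cuts the RNA itself, whereas SMG5 helps to recruit decapping and deadenylation enzymes. Several of these mRNAs are known to be targets of the pathway they serve, through features such as long 3′ untranslated regions (UTRs).

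Both lists came from MDA-MB-231, an established human breast cancer line of the triple receptor negative type, with 2 samples per protein. Cells were irradiated with 400 mJ cm-2 of ultraviolet light at 254 nm, which bonds proteins to the RNA they touch. HNRNPC, a mostly nuclear protein that binds runs of U in unspliced RNA, was profiled by irCLIP. The name of its list gives another form of the assay. The RNA was cut by nuclease and joined to an adaptor before oligo(dT) beads pulled it down. PABPC4, a protein that coats poly(A) tails, was profiled by PAPERCLIP, in which reverse transcription starts from the tail, so that tags mark where a tail begins.

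The height of a peak is the number of pooled unique tags at its summit, and no height was scaled to sequencing depth. As the samples of each protein were pooled before peaks were called, no spread between replicates and no test between conditions could be had. Intervals given for heights are exact Poisson intervals and those for shares are Wilson intervals, all at 95%, and they cover counting error only. The abundance of each mRNA was not measured in these files, so a taller peak can mean more RNA as well as more binding.

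The labelled line was checked against marker genes in the PABPC4 list. All 4 mesenchymal-like markers had a 3′ UTR peak, from 331 tags in CD44 to 10197 tags in VIM. Of 5 luminal or hormone receptor markers, PGR and FOXA1 had no peak and ESR1 had no 3′ UTR peak, while GATA3 and CDH1 had 3′ UTR peaks of 108 and 56 tags.

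HNRNPC had a peak in 6 of the 7 genes and PABPC4 in all 7. Among 20037 protein-coding genes of RefSeq, 19.0% had an HNRNPC peak, 59.2% had a PABPC4 peak and 18.6% had both. UPF3B, the paralogue of UPF3A, was the gene without an HNRNPC peak. Longer genes offer more sequence for peaks, and the 7 genes spanned 18.9 kb (UPF3B) to 244 kb (SMG6). No HNRNPC peak of these genes lay in a 3′ UTR, against 2.28% of all protein-coding genes with such a peak.

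**Figure D1:**
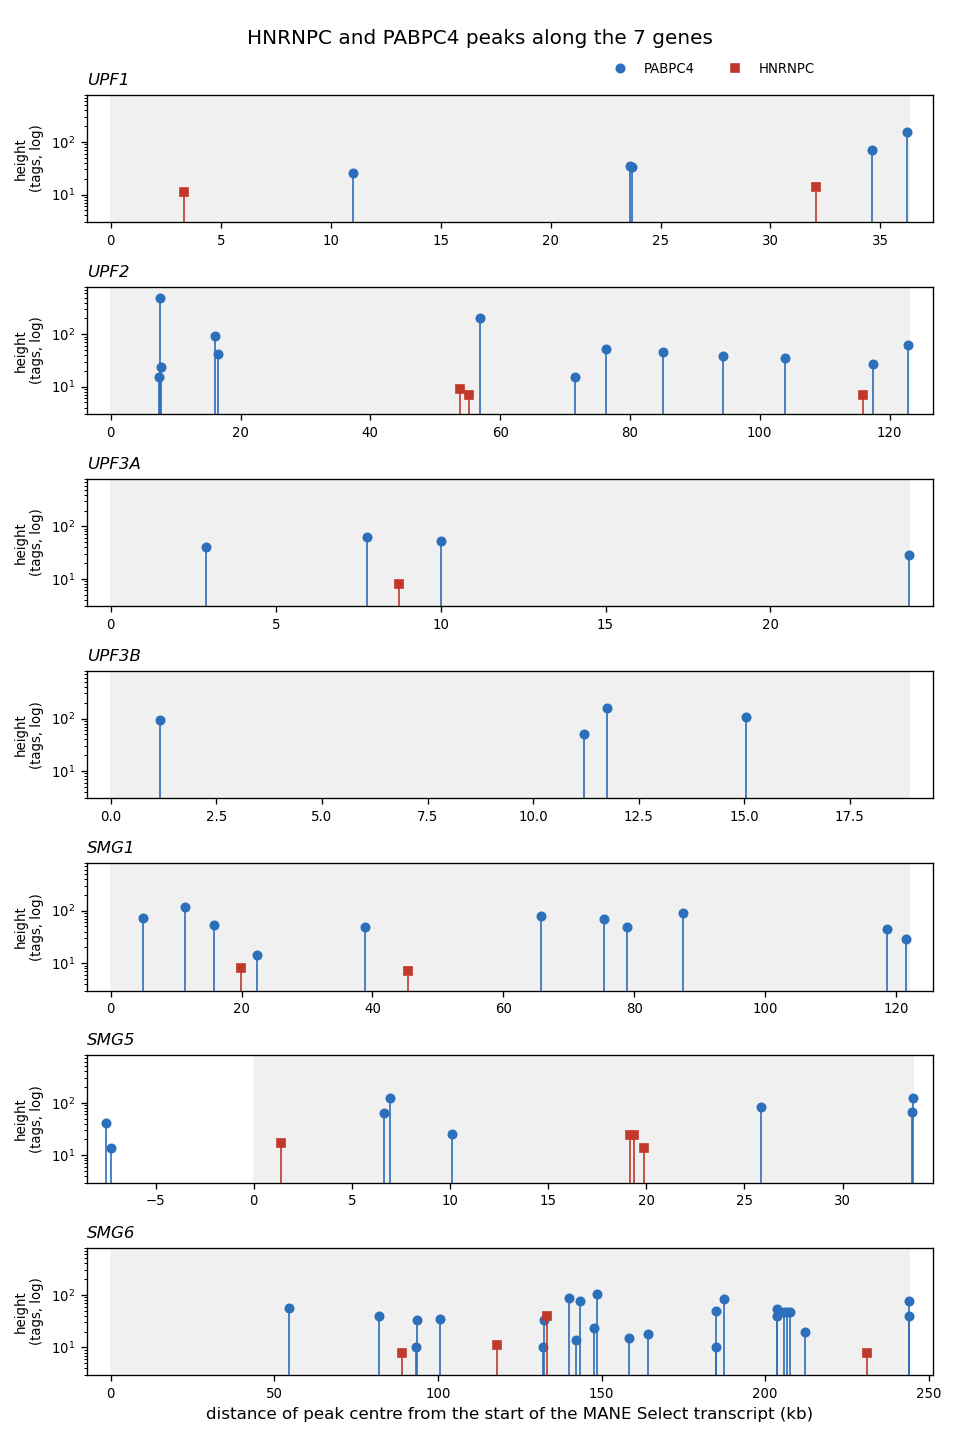
Peaks of HNRNPC (red squares) and PABPC4 (blue circles) along each gene, by the distance of the peak centre from the start of the MANE Select transcript in kb (x axis) and by peak height in pooled tags (log y axis); the grey band spans that transcript. PABPC4 peaks stand at the far right end of every gene but UPF3B, and 2 peaks listed under SMG5 lie before its start.

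The ends of the mRNAs came first, since PAPERCLIP is built to mark them. A PABPC4 peak had its 3′ edge within 50 nt of an annotated transcript end in 6 of the 7 genes, against 41.3% of all protein-coding genes. All 6 also had one within 50 nt of the end of the MANE Select transcript, the reference isoform of the gene. These peaks differed several-fold in height. UPF1 had 155 tags (132 to 181), SMG5 had 125 (104 to 149), SMG6 had 78 (61.7 to 97.3), UPF2 had 61 (46.7 to 78.4), and UPF3A and SMG1 had 29 each (19.4 to 41.6). By these intervals UPF1 and SMG5 overlapped, SMG6 and UPF2 overlapped, and both UPF1 and SMG5 lay above the other 4.

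The last 30 bases up to the 3′ edge of these peaks are shown because they carry the poly(A) signal, the hexamer that directs cleavage of the transcript. They are read 5′ to 3′ from hg38 on the strand of the gene, with AAUAAA in capitals.
UPF1, chr19:18868154-18868202, plus strand: auuuucggucaauuuaaguucuuuugucac
UPF2, chr10:11920023-11920048, minus strand: ugccgaugcugcAAUAAAguguuguaauuu
UPF3A, chr13:114305787-114305810, plus strand: uuuauuaAAUAAAaauuuuguuaaagaagu
SMG1, chr16:18804866-18804918, minus strand: cuguuuuucagaaAAUAAAgguucagucuc
SMG5, chr1:156249227-156249270, minus strand: uaaagcaucacuuAAUAAAccccccaagcc
SMG6, chr17:2059844-2059888, minus strand: uuccuuAAUAAAuuuuuaguuaugaaacau

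In 5 of these 6 peaks AAUAAA began 17 to 24 nt before the 3′ edge, as counted from its first base. The UPF1 peak, the tallest of the 6, held neither AAUAAA nor AUUAAA in its last 40 nt. Its 3′ edge lay 28 nt short of the MANE end and 2 nt short of another annotated end. In the whole list, 60.9% of the 11601 peaks within 50 nt of an annotated end of their gene held AAUAAA or AUUAAA in their last 40 nt, and in these genes 6 of 10 such peaks did (interval 31.3 to 83.2%). Only bases inside a peak were searched, so peaks narrower than 40 nt were searched over their own width alone.

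UPF1 (chr19:18831959-18868230, plus strand, 24 exons) had 5 PABPC4 peaks. Besides the end peak, there was a 3′ UTR peak of 69 tags 1649 nt before the end (chr19:18866546-18866581), which was followed by an A-rich stretch in the genome. An A-rich stretch is defined here as 6 A in a row or 7 A within 10 nt, within 50 nt downstream of the peak. Such a stretch lies in the RNA itself and is known to anneal to oligo(dT)-type primers as a tail does; its part in these peaks was not tested. Intron 11 held peaks of 35 and 33 tags in a retained-intron transcript, the second with its 3′ edge at the annotated end of that transcript and with an A-rich stretch, and intron 1 held a peak of 26 tags. The end peak made up 48.7% of the summed heights of the gene, the highest share of the 7 genes.

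UPF2 (chr10:11920022-12042809, minus strand, 22 exons) had 13 PABPC4 peaks, and the tallest was not at its end. It lay in the coding sequence of exon 2 (chr10:12035147-12035266) and had 499 tags (456 to 545), against 61 at the end. It was taller than the tallest PABPC4 peak of 95.8% of protein-coding genes with a peak. A pair of small peaks of 15 and 24 tags lay in the same exon, the latter 7 nt before the end of a short annotated transcript and with no A-rich stretch after it, all 3 within 328 nt, and together they made up 46.8% of the summed heights of UPF2, against 5.31% for the end peak. The 499-tag peak ended 88 nt before that annotated end, and the genome continued with a run of 7 A directly after it. The next tallest, 201 tags in intron 8 (chr10:11985908-11985975), was also A-rich downstream and lay in or within 100 nt of a sense Alu-like element, a stretch that matches 7SL RNA, from which the Alu repeats derive, and that ends in A. In all, 9 of the 13 UPF2 peaks were followed by an A-rich stretch, against 58.5% of the whole list.

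UPF3A (chr13:114281601-114305817, plus strand, 10 exons) and UPF3B (chrX:119834022-119852963, minus strand, 11 exons) are paralogues, and their PABPC4 peaks lay in different parts of the gene. UPF3A had 4 peaks. They comprised 29 tags at the end, 41 tags in intron 3, 64 tags in intron 5 (chr13:114289349-114289395) and 52 tags in a non-coding exon over the short intron 6 (chr13:114291595-114291641). At 95% identity, the intron 3 and intron 5 peaks matched 55 and 19 other places in the genome. UPF3B also had 4 peaks, all in coding sequence. They comprised 94 tags in exon 2, 51 in exon 6, 162 in exon 7 (chrX:119841176-119841260) and 109 in exon 10 (chrX:119837891-119837977). The exon 10 peak was the nearest to the end of the UPF3B transcript and still lay 3869 nt before it. Of the 4 UPF3B peaks, 3 were followed by an A-rich stretch, in the case of the exon 2 peak by 16 A in a row, and 0 held AAUAAA or AUUAAA in their last 40 nt. No peak of either list lay in the annotated span of UPF3B under another gene ID.

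SMG1 (chr16:18804860-18926408, minus strand, 63 exons) encodes the kinase and had 11 PABPC4 peaks. Its 3′ UTR of 4712 nt, the longest of the 7 genes, held a peak at either of 2 annotated ends. The upstream one (chr16:18807763-18807809) had 45 tags (32.8 to 60.2) and lay 2903 nt before the other, which had 29 tags (19.4 to 41.6), so the intervals overlapped. Both held AAUAAA, and both were followed by an A-rich stretch, so neither site is free of that property. The longest run of A within 50 nt downstream was 11 at the upstream peak and 4 at the other. The upstream peak also had a sense Alu-like element in it or within 100 nt, and the other did not. The tallest SMG1 peak, 116 tags, lay in intron 1 (chr16:18914959-18915021) directly before a run of 17 A. Intron 1, which is 29.0 kb long, held 4 of the 11 peaks.

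SMG1 has several pseudogenes on the same chromosome that share its sequence. A search of each peak against the genome at 95% identity over its whole length found a second place inside an annotated SMG1 pseudogene for 4 of the 11 PABPC4 peaks and for 1 of the 2 HNRNPC peaks, so their tags may in part come from there. With places outside the pseudogenes counted too, 6 of the 11 PABPC4 peaks had another place. The 68-tag peak in intron 33 had 26. The 2 end peaks and the tallest peak of SMG1 had no other such place.

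SMG5 (chr1:156249224-156282825, minus strand, 22 exons) had 8 PABPC4 peaks. The end peak of 125 tags had a companion of 66 tags (51.0 to 84.0) 61 nt before the end (chr1:156249285-156249315), without AAUAAA or AUUAAA. Another place in the genome matched the end peak at 43 of 44 bases. An intron 4 peak of 124 tags (chr1:156275814-156275887), next to one of 64 tags in the same intron, was as tall as the end peak within its interval (103 to 148). It was A-rich downstream and had a sense Alu-like element in it or within 100 nt. The remaining peaks of the gene itself were 83 tags in intron 16 and 26 tags in intron 6. The 64-tag and 83-tag intron peaks had 29 and 129 near-identical places elsewhere in the genome. A further pair of peaks, of 41 tags (chr1:156290308-156290343) and 14 tags (chr1:156290096-156290135), was listed under SMG5 and under its neighbour GLMP. They lay in the 3′ UTR of GLMP, before the start of the MANE transcript of SMG5 and outside its annotated span. By annotation they are thus peaks of GLMP, although the list also gives the ID of SMG5. Without them the 7 genes had 68 PABPC4 peaks.

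SMG6 (chr17:2059843-2303785, minus strand, 19 exons) encodes the endonuclease and had 25 PABPC4 peaks, more than 98.8% of protein-coding genes. Per 10 kb of gene it had 1.02 peaks, close to the median of 1.12 over protein-coding genes with a peak. At its end lay the peak of 78 tags and a second of 39 tags 64 nt before the end. The other 23 were in introns, 18 of them in intron 13, which is 86.8 kb long and takes up 35.6% of the gene. Those 18 ran from 10 to 105 tags, and each was followed by an A-rich stretch or lay in or within 100 nt of a sense Alu-like element. The tallest was chr17:2155110-2155156. The end peak made up 7.28% of the summed heights of SMG6.

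The tallest PABPC4 peak was at an annotated end in 2 of the 7 genes, UPF1 and SMG5, against 42.9% of the 11768 protein-coding genes with a PABPC4 peak that could be matched to the annotation. In the other 5 genes the tallest peak was intronic (UPF3A, SMG1 and SMG6) or coding (UPF2 and UPF3B). That of UPF3A had 19 near-identical places elsewhere in the genome. In SMG5 the margin over the intron 4 peak was a single tag.

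**Figure D2:**
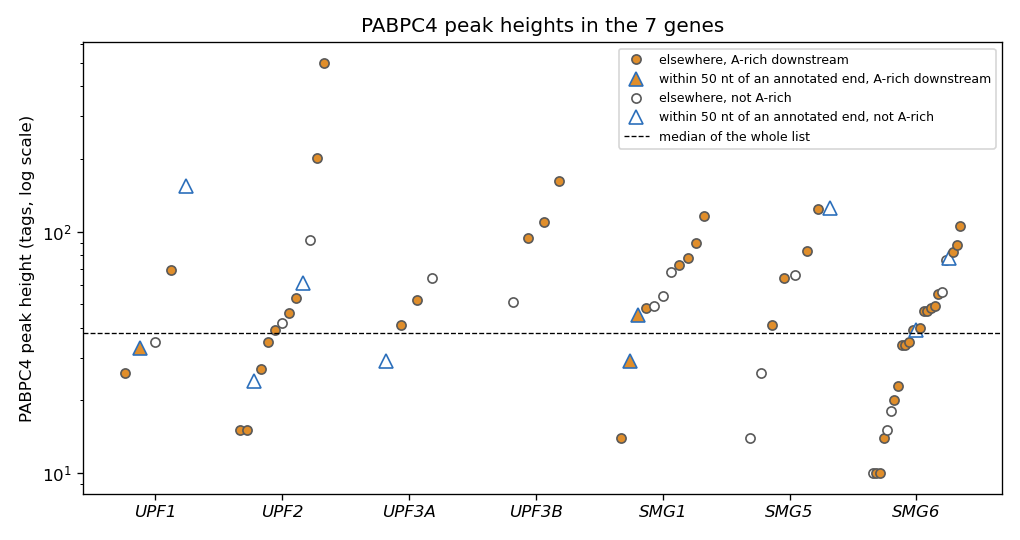
Height of every PABPC4 peak in the 7 genes in pooled tags (log y axis), ordered by height within each gene; triangles have their 3′ edge within 50 nt of an annotated end of the gene, orange fill marks an A-rich stretch within 50 nt downstream, and the dashed line is the median of the whole list (38.0 tags). Orange circles reach the highest values in UPF2 (499 tags), UPF3B (162), SMG1 (116) and SMG6 (105), while a white triangle tops UPF1 (155) and SMG5 (125).

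The bases downstream of the tallest A-rich peak of 6 of the genes are shown because they hold that stretch. Each is 30 bases long, from hg38, with the first run of at least 6 A, or failing that the first 10 bases with at least 7 A, in capitals. They start directly after the 3′ edge of the peak, except in UPF3A, where they start at base 16 after it. The UPF1 peak is the 3′ UTR peak of 69 tags, and the UPF2, UPF3A, UPF3B, SMG1 and SMG5 peaks are those of 499, 52, 162, 116 and 124 tags.
UPF1: AAAAUAAAAAuaaacggauaccuguuuucc
UPF2: AAAAAAAgaaacaucaagaggaagagagaa
UPF3A: agaacggaggaggagagaguUAGAAAAGAA
UPF3B: GAAAGAAGAAgagaaacgaaaaaggaaaga
SMG1: AAAAAAAAAAAAAAAAAuaugguaauuuaa
SMG5: accacauuaucUAAAAGACAAgauuauucu

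SMG1 and UPF2 thus had unbroken runs of A, whereas UPF1, UPF3A, UPF3B and SMG5 met the definition only by windows broken by other bases. The 2 coding peaks, in UPF2 and UPF3B, stood before purine-rich sequence with many A and G.

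Introns held 45 of the 70 PABPC4 peaks (64.3%, 52.6 to 74.5%), 3′ UTRs held 12 (17.1%, 10.1 to 27.6%), coding sequence held 10 (14.3%, 7.95 to 24.3%) and non-coding exons held 3. In the whole list, introns held 60.2%, 3′ UTRs 31.6% and coding sequence 3.52%, or 5.57% where coding sequence was given priority over 3′ UTRs of other transcripts. The 10 coding peaks came from UPF2 (4), UPF3B (4) and SMG1 (2), so they are not independent of each other. Of the 45 intron peaks, 34 were followed by an A-rich stretch (75.6%, 61.3 to 85.8%), against 71.2% in the whole list. A sense Alu-like element was found in or within 100 nt of 30 (66.7%, 52.1 to 78.6%), against 53.1%. Together, 41 of the 45 had either property (91.1%, 79.3 to 96.5%), against 87.5% in the whole list. The 4 without lay in UPF2, SMG1 and SMG6. Those in SMG1, of 54 and 68 tags, had near-identical places elsewhere in the genome. AAUAAA or AUUAAA occurred in the last 40 nt of 0 of the 45 intron peaks (upper bound 7.87%), against 5.96% of intron peaks in the whole list. The search stayed inside each peak, and the narrowest of these intron peaks was 10 nt wide, so a signal further upstream would be missed.

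**Figure D3:**
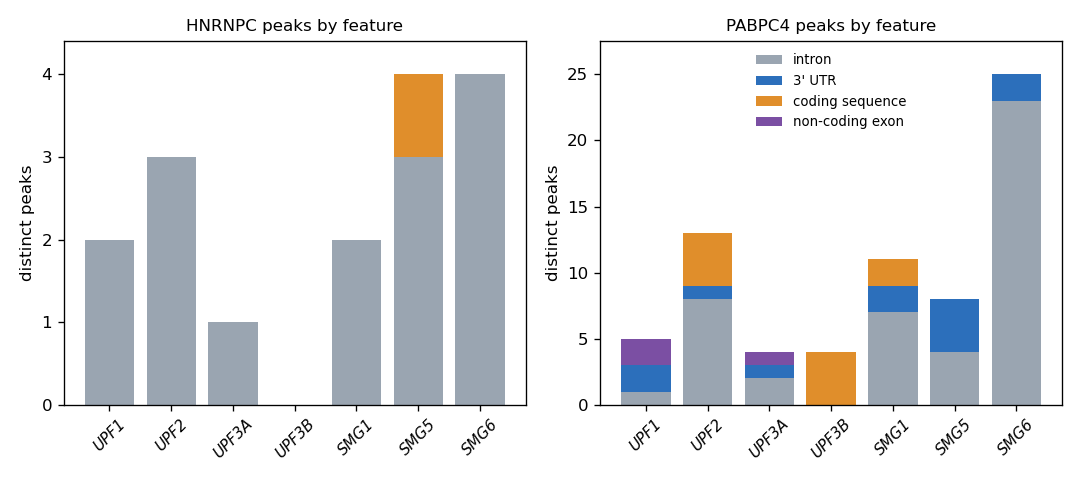
Number of distinct HNRNPC peaks (left) and PABPC4 peaks (right) in each gene, stacked by the annotated feature at the peak centre. HNRNPC peaks were intronic except for 1 coding peak in SMG5; UPF3B had only coding PABPC4 peaks, and 23 of the 25 SMG6 peaks were intronic. The SMG5 bar includes the 2 peaks also listed under GLMP.

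HNRNPC lay almost wholly in introns of these genes. Of its 16 peaks, 15 were intronic (93.8%, 71.7 to 98.9%), against 85.5% in the whole list, and 1 was in coding sequence. Heights ran from 7 to 39 tags with a median of 10.0, against a list median of 11 tags.

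In UPF1 the HNRNPC peaks had 11 tags in intron 1 and 14 tags in intron 19 (chr19:18863948-18864091, 7.65 to 23.5). UPF2 had 9 tags (chr10:11988937-11989008) and 7 tags in intron 8, and 7 tags in intron 21. UPF3A had 8 tags in intron 5 (chr13:114290297-114290379). SMG1 had 8 tags in intron 1 (chr16:18906374-18906508), the peak shared with SMG1 pseudogenes, and 7 tags in intron 10. The intervals of all these peaks overlapped, so they cannot be ranked.

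Among the genes of the factors that bring about decay, SMG5 had 17 tags in intron 1 and then 3 peaks within 830 nt. These were 24 tags near the end of intron 12 (chr1:156263612-156263699, 15.4 to 35.7), 24 tags in the coding sequence of exon 13 (chr1:156263381-156263499, 15.4 to 35.7) and 14 tags in intron 13 (chr1:156262870-156262961, 7.65 to 23.5). The exon 13 peak was the only exonic HNRNPC peak in the 7 genes, and its 3′ edge lay in the following intron. With 1.19 peaks per 10 kb SMG5 had a higher density than 89.8% of protein-coding genes with an HNRNPC peak, whose median was 0.286. SMG6 had 39 tags in intron 13 (chr17:2170299-2170412, 27.7 to 53.3), 11 in intron 12, and 8 each in introns 10 and 15. The intron 13 peak was taller than the tallest HNRNPC peak of 89.5% of protein-coding genes with a peak, and its interval overlapped with those of the 24-tag SMG5 peaks. SMG6 as a whole was not densely covered, at 0.164 peaks per 10 kb.

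Since HNRNPC is known for its preference for runs of U, the peaks were searched for 5 U in a row in the peak or in the 50 nt upstream. Only 2 of 16 held one (12.5%, 3.50 to 36.0%), the intron 12 peak of SMG5 and the intron 10 peak of SMG6, against 39.7% of the whole list. No longest run exceeded 5 U. Antisense Alu-like elements, whose transcripts carry U runs, were found in or within 100 nt of 2 of 16 peaks (12.5%, 3.50 to 36.0%), in intron 1 of UPF1 and intron 8 of UPF2, against 32.8%. The share for 5 U was sensitive to the window, and was 37.5% where 50 nt on both sides were searched. The whole-list share for that wider window was not computed.

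The 30 bases around the longest U run at the tallest HNRNPC peak of each gene are shown, since they hold the longest U run near each peak. They come from hg38 on the strand of the gene, and capitals mark the run. For SMG5, where 2 peaks were equally tall, the exon 13 peak is shown.
UPF1: cUUUgcaagcccggggugaucugguaguga
UPF2: ugaaggucuuaUUUUguccuucacuuccag
UPF3A: gggacaggugccaUUUcaucuaugauguca
SMG1: ucaggugcagguaUUUUaugguaucuuccc
SMG5: cauccaggagaagcUUcagguccugauggc
SMG6: uauugaagcugucUUUUagugugggacagg

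These runs were 2 to 4 U long. The intron 12 peak of SMG5, as tall as the exon 13 peak shown, had a run of 5 U.

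A different short element, chosen after its values were seen, recurred at the 3′ edge of the HNRNPC peaks. The hexamer GUGUCA stood within the last 20 nt of 7 of the 16 peaks (43.8%, 23.1 to 66.8%), against 23.3% of the whole HNRNPC list and 0.222% of the whole PABPC4 list. The interval includes the share of the whole HNRNPC list, so an excess of the hexamer was not resolved. It was found in both SMG1 peaks, in the 3 clustered SMG5 peaks and in 2 SMG6 peaks, including the tallest, and in none of those of UPF1, UPF2 and UPF3A. The last 30 bases of these 7 peaks are shown with the hexamer in capitals.
SMG1, intron 1, 8 tags: ucaagcgauucuccuGUGUCAgucucccgu
SMG1, intron 10, 7 tags: accucacucagcccuacaagcgaGUGUCAc
SMG5, exon 13, 24 tags: caucgugugugcgcagguGUGUCAguccac
SMG5, intron 12, 24 tags: gagcugaggccuguucccaaGUGUCAguug
SMG5, intron 13, 14 tags: cccuuccuucucagguucagaGUGUCAgcc
SMG6, intron 13, 39 tags: cagcucucucagcucuaGUGUCAgauacca
SMG6, intron 12, 11 tags: cugcccucgcccccugucucuguGUGUCAg

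Its first base stood 7 to 15 nt before the 3′ edge. Why it stands there was not tested. The tallest peaks of SMG5 and SMG6 were all among those that carried it.

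**Figure D4:**
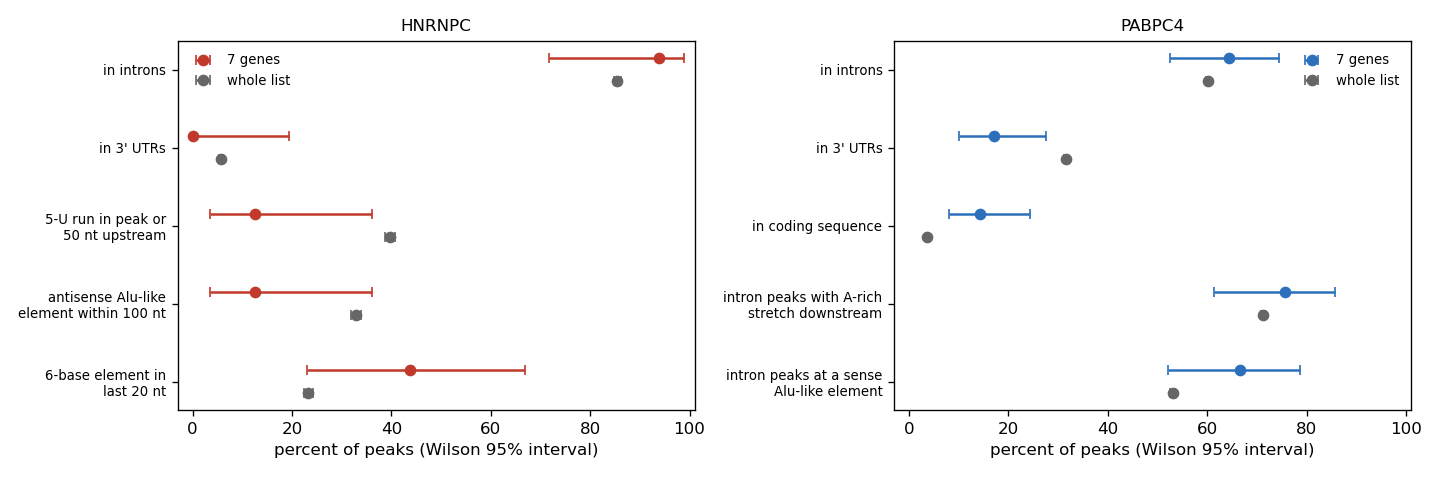
Percent of peaks with each property in the 7 genes (red for HNRNPC, blue for PABPC4) and in the whole list (grey), with Wilson 95% intervals; peaks of a gene are not independent. The 6-base element is GUGUCA. For HNRNPC the 5-U run was seen in 12.5% of peaks against 39.7% of the list, and for PABPC4 coding sequence held 14.3% against 3.52%.

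Because both proteins were mapped in the same line, their peaks were laid over each other. None of the 16 HNRNPC peaks overlapped a PABPC4 peak of the same gene (upper Wilson bound 19.4%). The distance between the centres of an HNRNPC peak and the nearest PABPC4 peak of its gene ran from 966 nt in intron 5 of UPF3A to 13924 nt in intron 12 of SMG6, with a median of 4858 nt. The tall intron 13 peak of SMG6 lay 1137 nt from the nearest PABPC4 peak. Overlap and distance were not computed over the whole HNRNPC list, so neither can be called particular to these genes.

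Other genes of the pathway were read in the same way. Of 18 such genes, 5 had an HNRNPC peak, 18 had a PABPC4 peak and 17 had a PABPC4 peak at an annotated end. Against these stand the shares of 19.0%, 59.2% and 41.3% of all protein-coding genes. All 6 exon junction complex genes (EIF4A3, RBM8A, MAGOH, MAGOHB, CASC3 and RNPS1) had no HNRNPC peak, as was the case for most protein-coding genes, and had a PABPC4 peak at an end, from 44 tags in RNPS1 to 271 in RBM8A. Among the regulators of SMG1 and UPF1, 3 of 6 had an HNRNPC peak and 6 of 6 a PABPC4 end peak. SMG9, the gene of a subunit of the SMG1 complex, and the release factor gene GSPT1 had 2 HNRNPC peaks each, all intronic, and no gene of these 18 had more. The tallest HNRNPC peak of the 18, named after its value was seen, had 42 tags and lay in an intron of RUVBL1. The only HNRNPC 3′ UTR peak, of 24 tags, was in DCP2, which encodes the decapping enzyme. DCP2 and XRN1, the gene of the exonuclease that degrades decapped RNA, had the most PABPC4 peaks, 13 and 12. DCP2 was the gene of the 18 without a PABPC4 peak at an annotated end, although its tallest 3′ UTR peak had 108 tags.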

How the data were processed

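HNRNPC irCLIP and PABPC4 PAPERCLIP were performed in MDA-MB-231 cells (2 samples each). For HNRNPC, the authors collapsed reads by molecular identifiers, extracted these (UMI-tools), trimmed reads (cutadapt), aligned them to hg38 (BWA 0.7.17) and pooled both samples for valley-seeking peak calling (CTK); PABPC4 processing was not described separately. The deposited signal is a summit height in pooled tags; library depth is unknown from the lists. Peaks were assigned by listed gene ID, each position once, and by the centre on its own strand in GENCODE 44 in the order 3′ UTR, coding sequence, 5′ UTR, non-coding exon, intron (bedtools 2.31.1). Alu-like elements (RN7SL1, E-value 1e-05) and other genomic places were found with blastn 2.17.0. Points planted in annotated coding sequence and 3′ UTRs, and A runs, U runs and AAUAAA planted in random sequence, were all recovered. This checks the code only. Intron assignment, the order of features, GUGUCA and the Alu-like search were not checked in this way. The tallest peak per gene and list, exonic HNRNPC peaks, end peaks and shared positions were named by rule; the hexamer GUGUCA and the other SMG1, SMG5 and SMG6 peaks shown were chosen after their values were seen. Members, lists and rules were chosen with earlier results of these data known. Alternatives covered p-value, height, gene models, windows and motif definitions. Some items of these lists are not reported here.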

Additional observations from a re-analysis of the deposited data

How the results depend on the processing

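Across 10 results, 53 alternatives were run, 10 of them chosen after seeing the data, and 40 left the value within its interval or within 1.5 times the count. With only peaks at or above the median height of their list, HNRNPC peaks fell to 8 and PABPC4 peaks to 46. Without PABPC4 peaks that precede an A-rich stretch, 23 peaks were left, of which 47.8% were in introns and 34.8% in 3′ UTRs. The whole-list shares under this filter were not computed. Without peaks that had a near-identical place elsewhere, 48 PABPC4 and 14 HNRNPC peaks were left, and the intron share of PABPC4 was 52.1%. Peaks with such a place occurred in every gene but UPF3B. Leaving them out was chosen after seeing the data. With a downstream window of 20 nt, 48.9% of PABPC4 intron peaks preceded an A-rich stretch. With the 3′ edge in place of the centre, 100% of HNRNPC peaks were intronic. The U-run share was 37.5% with 4 U, against 60.9% of the whole list, and 0% in the peak alone, against 13.3%. It was 0% with 6 U and 37.5% with 50 nt on both sides, for which no whole-list share was computed. Keeping HNRNPC peaks with the authors' p no higher than 0.001 left 11, and 0% of them were near an antisense Alu-like element. The cause of these shifts was not tested beyond the change of definition itself. The number of genes with a PABPC4 end peak stayed at 5 or 6, and the overlap of both proteins at 0.

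No paired analysis was possible because each protein had 1 list made from pooled samples, which also kept single replicates from being left out. Low heights limit the HNRNPC peaks: a peak of 7 tags has an interval from 2.81 to 14.4 tags. Peaks of 1 gene share their RNA and are not replicates.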

Other observations

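For each gene, the protein-coding gene with the most similar make-up of peaks was sought by the Euclidean distance over log2(1 + count) of 6 counts, the HNRNPC and the PABPC4 peaks in introns, in 3′ UTRs and elsewhere, with ties settled by gene length. ARL6IP6 had the same 6 counts as UPF1, and LRRIQ1 the same as UPF3B, namely 4 PABPC4 peaks outside introns and 3′ UTRs and no other peak, although LRRIQ1 spans 209 kb and UPF3B 18.9 kb. PPWD1 was 1 of 13 genes with the counts of UPF3A, and GIGYF2 was 1 of 2 with those of SMG1. The nearest genes of UPF2, SMG5 and SMG6 were ZNF644, NUP58 and CMSS1, at distances of 0.604, 0.322 and 0.115. ZNF644 was 1 of 2 genes at that distance, and the counts of SMG5 include the 2 peaks also listed under GLMP.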
